A study of Mus musculus with 6 samples.

Results

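The 17-beta-hydroxysteroid dehydrogenase family comprises enzymes that oxidise or reduce the oxygen at carbon 17 of steroids, or that work on related fatty acyl and other substrates. The 10 genes described here are Hsd17b1, Hsd17b2, Hsd17b3, Hsd17b4, Hsd17b8, Hsd17b10, Hsd17b11, Hsd17b12, Hsd17b13 and Hsd17b14, out of 36652 genes in the deposited table. They were chosen by name, leaving out Hsd17b7 of sterol synthesis and Hsd17b6. Of the 10, 9 were found by symbol, and Hsd17b8 was found under H2-Ke6, for which RefSeq lists Hsd17b8 as a synonym. The genes were compared in RNA sequencing libraries from the testis of mice aged 8 weeks, 3 labelled WT and 3 labelled Ccdc117ko (loss of Ccdc117, a gene for a coiled-coil protein). The labels give neither the strain nor the allele, nor the part of Ccdc117 that was altered. Whether each replicate is a mouse of its own is not stated in the labels, so the p-values reflect only how far these samples vary. The title of the series concerns androgen excess and sperm formation without Ccdc117.

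In the testis, Leydig cells between the tubules make testosterone from cholesterol, and Hsd17b3 catalyses the last step, the reduction of androstenedione to testosterone. Hsd17b1 also reduces ketones at carbon 17 and makes active oestrogen, whereas Hsd17b2 and Hsd17b14 work mainly in the oxidising direction and inactivate hormones. The other members have their main known work outside hormone synthesis. Hsd17b4 is the multifunctional enzyme of peroxisomal beta-oxidation, Hsd17b8 and Hsd17b10 act in mitochondria, Hsd17b12 is the ketoreductase of very-long-chain fatty acid elongation, and Hsd17b11 and Hsd17b13 sit on lipid droplets.

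The RefSeq promoter table (GRCm38.p6) held a window for 6 of the 10 members, and 3 of these are shown because the results turn on their genes. Each line gives the stretch of the 250 bases before the RefSeq start that lies outside exons of protein-coding genes in GENCODE M21, on the strand of the gene, which is the minus strand for all 3. Capitals mark CCAAT, read on either strand (ATTGG is CCAAT on the opposite strand).
Hsd17b11, chr5:104021920-104022046: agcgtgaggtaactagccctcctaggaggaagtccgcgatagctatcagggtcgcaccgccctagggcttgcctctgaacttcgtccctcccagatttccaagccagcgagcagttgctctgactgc
Hsd17b8, chr17:34028061-34028268: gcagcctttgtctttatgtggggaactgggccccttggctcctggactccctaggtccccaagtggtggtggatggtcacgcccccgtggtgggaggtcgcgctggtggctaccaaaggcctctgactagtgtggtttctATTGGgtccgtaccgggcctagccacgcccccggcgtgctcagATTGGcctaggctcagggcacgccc
Hsd17b3, chr13:64089231-64089451: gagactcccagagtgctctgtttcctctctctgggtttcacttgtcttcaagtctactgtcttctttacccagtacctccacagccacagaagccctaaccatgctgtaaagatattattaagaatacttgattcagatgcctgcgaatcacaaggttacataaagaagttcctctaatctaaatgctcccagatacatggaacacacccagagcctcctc
The Hsd17b8 stretch carried CCAAT at 73 and at 30 bases before the start, each on the opposite strand. In the Hsd17b11 window CCAAT lay 115 bases before the RefSeq start, inside the first GENCODE exon and therefore outside the printed stretch. CCAAT was present in 33.8% of the 32851 windows of the same length. Neither TATAAA (12.4% of windows) nor AAGGTCA, the core of the Nr5a1 half-site (4.08% of windows), was found in a window of these 3 genes. The motif letters do not overlap one another. Hsd17b3 had 2 CG dinucleotides in its 250-base window, Hsd17b8 had 11 and Hsd17b11 had 13, beside a median of 6 over all windows. The whole Hsd17b8 window lay inside an exon of another transcript model, Gm20427, from 34027203 to 34029068, which is taken up beside the Hsd17b8 counts.

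The reads recovered per library ran from 35791616 to 43461692. Ccdc117 itself had 3657, 3826 and 3931 normalized counts (reads scaled for library depth) in the WT libraries and 3478, 3772 and 3908 in the Ccdc117ko libraries. The groups overlapped (log2 fold change -0.03, limma adjusted p = 0.763), so the gene total does not check the genotype labels. Markers of Leydig, Sertoli and germ cells were all detected, the lowest at a mean of 20.3 normalized counts, and no gene of the marker lists was at 0 in every library. In whole tissue, fewer cells of a type and less RNA per cell cannot be told apart.

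Of the 10 family members, 1 rose in the Ccdc117ko libraries (Hsd17b8, most of whose exon bases are shared with another gene model), 1 fell (Hsd17b11) and 8 did not pass the test. The test was limma on log2(normalized count + 1), adjusted by the Benjamini-Hochberg method over the 32783 genes whose mean over the 6 libraries reached 0.5 normalized counts, with 0.05 as the threshold. All 10 members passed that filter. The 2 calls made up 20.0% of the family, beside 6.80% of all genes tested (3.70% higher and 3.10% lower). All members but Hsd17b13 had a mean of at least 10 normalized counts. With only genes at that level fitted, 16.6% of genes were called, and the family again had 2 calls. The 3 values of each genotype did not overlap for 4 members, beside 27.0% of all genes tested. Of these 4, 3 were lower in Ccdc117ko, beside 13.3% of all genes lower without overlap and 13.7% higher. An unadjusted p under 0.05 was met by 4 members, beside 22.7% of all genes. The log2 fold change was below 0 for 7 members and above 0 for 3, and its median was -0.08, beside 0.00 over all genes. The plot of changes by gene shows that the intervals of the well-expressed members were narrow and those of Hsd17b13 and Hsd17b14 wide.

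**Figure D1:**
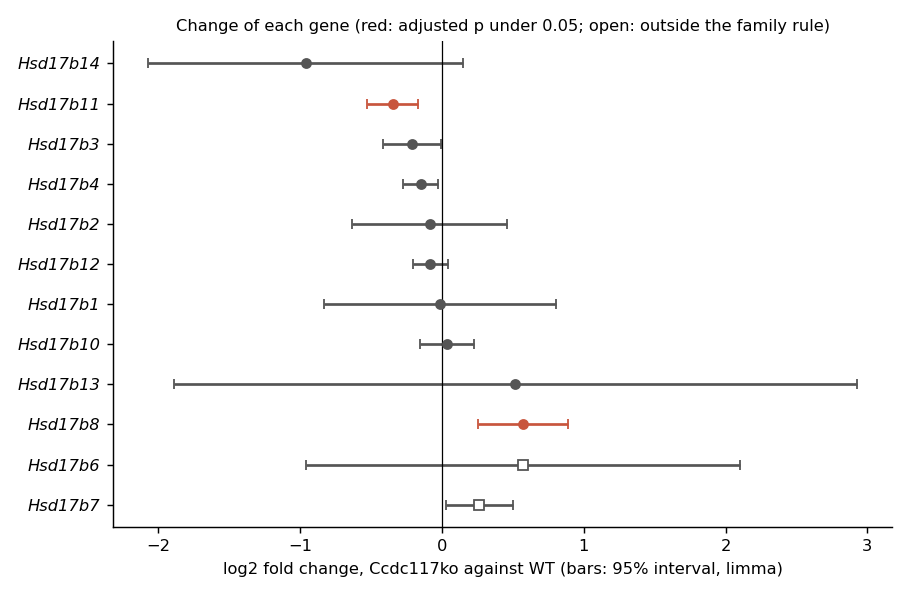
Log2 fold change (x axis, Ccdc117ko against WT, 3 libraries each) of the 10 family members and 2 relatives outside the rule (open squares), with 95% intervals from limma. The intervals of Hsd17b11 and Hsd17b8 (red) passed the adjusted threshold. That of Hsd17b13 spans -1.89 to 2.93.

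Levels can be compared between genes only per length. Here each count was divided by all exon bases of its gene. The place of Hsd17b8 is therefore uncertain, because 1419 of its 1643 exon bases are shared with the model Gm20427. How reads in those bases were assigned is not given. On this measure, Hsd17b3 was the highest member in the WT libraries, at 722, 658 and 605 normalized counts per kilobase. Hsd17b4 followed at 495, 540 and 511, then Hsd17b10 at 331, 289 and 284 and Hsd17b12 at 294, 299 and 303, and the last pair overlapped. Hsd17b8 (126, 163 and 126) and Hsd17b11 (141, 128 and 120) also overlapped each other. The remaining members were far lower, with WT means per kilobase of 28.1 for Hsd17b1, 23.0 for Hsd17b2, 6.74 for Hsd17b14 and 1.45 for Hsd17b13. Hsd17b1 and Hsd17b2 overlapped, and the other neighbours in this order did not. In the Ccdc117ko libraries the order of the means was the same, Hsd17b1 overlapped Hsd17b2, and Hsd17b14 overlapped Hsd17b13. Hsd17b8 and Hsd17b11, which overlapped in WT, lay apart in Ccdc117ko, at 176, 226 and 214 against 103, 101 and 100 per kilobase. Dividing by the longest transcript placed Hsd17b11 (189) above Hsd17b8 (176) and Hsd17b2 (33.5) above Hsd17b1 (28.1) in WT. On that length Hsd17b3 kept the highest mean in both genotypes but overlapped Hsd17b4. The values were 781, 711 and 654 against 628, 685 and 648 in WT, and 685, 572 and 597 against 578, 571 and 617 in Ccdc117ko.

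**Figure D2:**
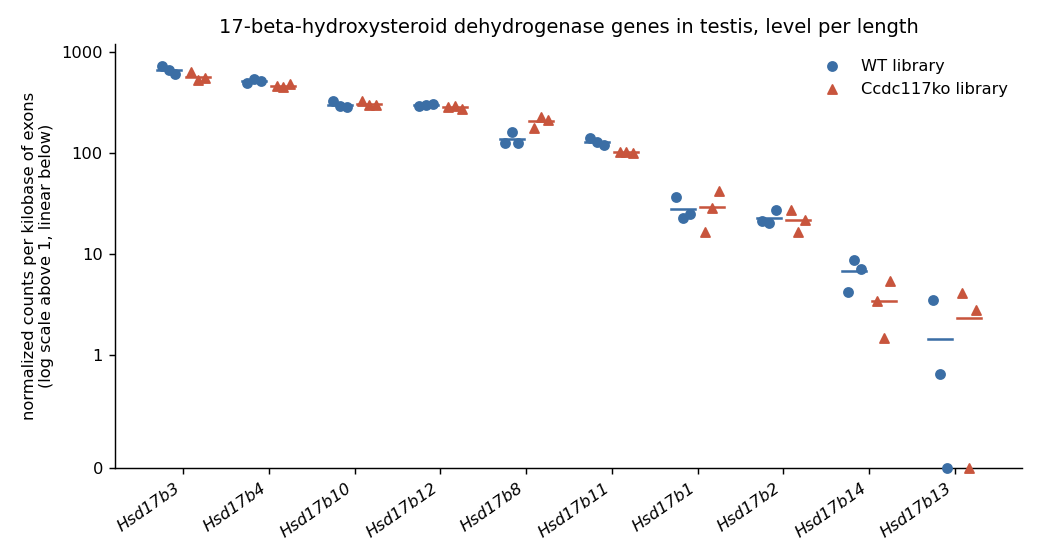
Normalized counts per kilobase of exons (y axis, log scale above 1 and linear below) of each family member in 3 WT libraries (circles) and 3 Ccdc117ko libraries (triangles), with lines at the means. Hsd17b3 is highest, with WT libraries between 605 and 722, and Hsd17b13 reaches 0 in 1 library of each genotype. The place of Hsd17b8 is uncertain, because most of its exon bases are shared with another gene model.

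Hsd17b11 fell. The gene encodes a dehydrogenase that is anchored to lipid droplets and the endoplasmic reticulum. It lies on chromosome 5 from 103989762 to 104021919 on the minus strand in GRCm38, beside its relative Hsd17b13 at 103955440 to 103977410. Its normalized counts were 460, 417 and 391 in WT and 335, 331 and 328 in Ccdc117ko. Every Ccdc117ko library lay below every WT library, and the Ccdc117ko libraries lay close together. The means were 423 ± 34.9 (SD, n = 3) in WT and 331 ± 3.63 (SD, n = 3) in Ccdc117ko, a mean that fell by 21.7%. The log2 fold change was -0.35 with a standard error of 0.08, and the limma adjusted p was 0.0397. The authors' deposited table gives Hsd17b11 an FDR of 0.00734. Leaving out any 1 of the 6 libraries ended the call, with a log2 fold change from -0.40 to -0.29 and an adjusted p of 0.0644 to 0.150 by limma, in fits where between 6 and 1268 of all genes were called. When the filter on the mean was raised to 10 (16.6% of genes called with all libraries), Hsd17b11 had an adjusted p of 0.0179, and the call held in 4 of 6 fits. It was lost without Ccdc117ko replicate 2 (adjusted p = 0.0620) and without Ccdc117ko replicate 3 (adjusted p = 0.0534), all by limma.

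Hsd17b13, the other lipid droplet member and mainly known from liver, was close to the detection limit. It had 7, 2 and 0 reads in the WT libraries and 9, 0 and 6 in the Ccdc117ko libraries. The reads overlapped completely and the log2 fold change of 0.52 had a standard error of 1.04 (limma adjusted p = 0.827), so a change was not detectable at this depth. A library with 0 reads allows up to 3 counts, a limit that covers counting error only. Among the 14 tested genes for lipid droplet proteins, none was called with limma, 4 had an unadjusted p under 0.05 and limma-voom called 1 (Plin2), and their median log2 fold change was 0.02. The 2 with the highest levels were Bscl2 (seipin, which shapes droplets at their birth) at 0.04 with an adjusted p of 0.501 and Lipe (hormone-sensitive lipase) at -0.15 with an adjusted p of 0.0925. Plin2, the general droplet coat protein, named outside the rule after its value was seen, had a log2 fold change of 0.36 and an adjusted p of 0.0558 by limma. With a filter at a mean of 10, 3 genes of this list were called.

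The row for Hsd17b8 rose, but its exons are shared with a second model. Hsd17b8 encodes the dehydrogenase subunit of the mitochondrial 3-ketoacyl-ACP reductase, where it pairs with Cbr4, and it also oxidises oestradiol. Its normalized counts were 207, 268 and 206 in WT and 289, 372 and 352 in Ccdc117ko. All 3 Ccdc117ko libraries were above all 3 WT libraries. The means were 227 ± 35.4 (SD, n = 3) and 337 ± 43.3 (SD, n = 3). The log2 fold change was 0.57 with a standard error of 0.14, and the limma adjusted p of 0.0485 was just inside the threshold. The authors' deposited table gives an FDR of 0.000406. Leaving out any 1 library ended the limma call (log2 fold change 0.50 to 0.70, adjusted p from 0.0725 to 0.215). With the filter at a mean of 10 the adjusted p was 0.0104, and that call was lost only without Ccdc117ko replicate 2 (adjusted p = 0.0588, limma), among the 6 libraries left out.

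Hsd17b8 spans 34026033 to 34028060 on the minus strand of chromosome 17 in GRCm38, in the major histocompatibility region. Gm20427 (34026034 to 34031580), annotated as a processed transcript on the same strand, covers 1419 of its 1643 exon bases, or 86.4%, and leaves 224 that are its own. Gm20427 also runs through the upstream gene Slc39a7, a zinc transporter gene, with 2084 bases in common, or 80.7% of the exon bases of Slc39a7. In the longest transcript of Hsd17b8, 96.3% of the 50-base words also occur in Gm20427. For 8 of the other 9 members no such word occurred in another gene, and for Hsd17b13 the share was 0.663%. How reads in shared exons were assigned is not given in the sources used here, so the count of this member is uncertain. Both models lie on the same strand, so use of strand would not separate their reads.

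The second model did not pass the test. Gm20427 had 1153, 871 and 806 normalized counts in WT and 890, 759 and 636 in Ccdc117ko (log2 fold change -0.30, limma adjusted p = 0.296), and the groups overlapped. The sum of Hsd17b8 and Gm20427 was 1360, 1139 and 1012 in WT and 1179, 1131 and 988 in Ccdc117ko. The sums overlapped, with means of 1170 ± 176 and 1099 ± 99.7 (SD, n = 3 each). Their log2 fold change was -0.08 with a limma adjusted p of 0.717, and the two-sided exact permutation p was 0.6 (0.75 adjusted over the 5 measures within libraries that were computed). The means of Hsd17b8 differ by 110.2 normalized counts, less than the SD of the WT sums, and that rise alone would change the sum by 0.13 on the log2 scale. The 95% interval of the change in the sum, -0.34 to 0.18 by limma, holds that value, so the sum could not show whether Hsd17b8 rose. With Slc39a7 added, the sum was 2307 ± 101 in WT and 2288 ± 13.2 in Ccdc117ko (SD, n = 3 each), with a log2 fold change of -0.01. Hsd17b8 held 15.2, 23.5 and 20.4% of the 2-model sum in WT and 24.5, 32.9 and 35.6% in Ccdc117ko, without overlap. The two-sided exact permutation p for this share was 0.1, the smallest that 3 against 3 allows (0.167 adjusted over the 5 measures). These sums were chosen after the values were seen. The other neighbours of the locus, also named after their values were seen, were not called by limma, with a log2 fold change of 0.06 for Slc39a7 (adjusted p = 0.718), 0.14 for Ring1 (adjusted p = 0.197) and -0.10 for Rxrb (adjusted p = 0.392).

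**Figure D3:**
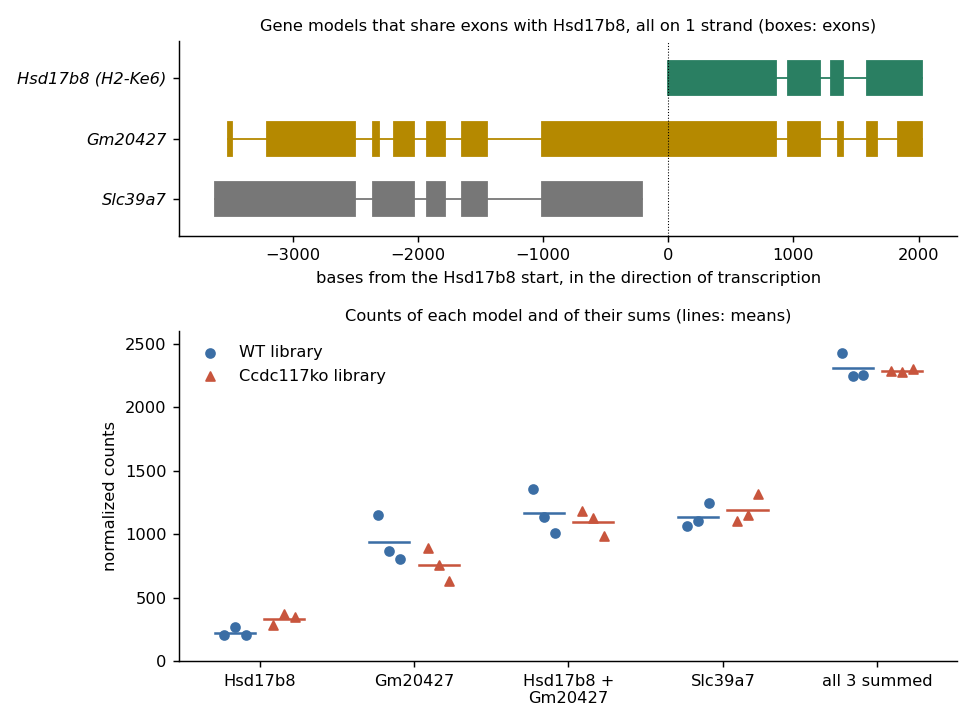
Top, exons (boxes) of Hsd17b8, Gm20427 and Slc39a7 by distance in bases from the Hsd17b8 start. Bottom, normalized counts (y axis, from 0) of each model and of their sums in 3 WT libraries (circles) and 3 Ccdc117ko libraries (triangles), with lines at the means. The Hsd17b8 values do not overlap between genotypes, whereas the sums with Gm20427, with means of 1170 and 1099, do.

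None of the 9 tested genes of mitochondrial fatty acid synthesis, the pathway in which Hsd17b8 acts, was called by limma or limma-voom, 0 had an unadjusted p under 0.05, and their median log2 fold change was -0.02. Mcat, the malonyl transferase at the start of the pathway, had a log2 fold change of -0.02 (adjusted p = 0.885). Lias, the lipoic acid synthase fed by it, had -0.02 as well (adjusted p = 0.896). Cbr4, the partner of Hsd17b8, named for that role outside the rule, had -0.04 (limma adjusted p = 0.829).

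Hsd17b10, on the X chromosome, encodes a mitochondrial dehydrogenase that breaks down isoleucine and is also a structural part of mitochondrial RNase P, which trims mitochondrial transfer RNAs. Its normalized counts were 430, 375 and 369 in WT and 423, 387 and 392 in Ccdc117ko. The groups overlapped throughout. The means were 391 ± 33.6 and 401 ± 19.3 (SD, n = 3 each), and the log2 fold change was 0.04, with an interval of -0.15 to 0.23 (limma adjusted p = 0.847). Its RNase P partners, named for that role, also had values near 0, with log2 fold changes of 0.00 for Trmt10c (adjusted p = 0.995) and -0.08 for Prorp (adjusted p = 0.644) by limma. Of the 10 tested genes of RNase P and isoleucine breakdown 1 fell, Acadsb, which dehydrogenates the branched acyl-CoA from isoleucine. Acadsb had 894, 841 and 831 normalized counts in WT and 700, 690 and 752 in Ccdc117ko (log2 fold change -0.26, limma adjusted p = 0.0411). No gene of this list was called in any of the 6 fits with a library left out, and 0 to 1 were with the filter at 10.

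Hsd17b3, the testosterone-forming member, did not pass the test. Its normalized counts were 1004.9, 915 and 841 in WT and 880, 736 and 768 in Ccdc117ko. The highest Ccdc117ko library lay above the lowest WT library, so the groups overlapped. The means were 920.4 ± 82.0 and 795 ± 76.0 (SD, n = 3 each). The log2 fold change was -0.21 (standard error 0.09), with an unadjusted p of 0.0454 that became 0.209 after limma's adjustment over all genes. The authors' deposited table gives an FDR of 0.0873. With the filter at a mean of 10, the limma adjusted p was 0.107 with all libraries and 0.0468 without Ccdc117ko replicate 1, where 12.4% of genes were called.

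Among the genes of testosterone synthesis before Hsd17b3, 4 of the 9 tested rose and 1 fell, with a median log2 fold change of 0.21. These calls were 55.6% of the list, beside 6.80% of all genes tested. Star, which carries cholesterol into mitochondria, rose with a log2 fold change of 1.23 (adjusted p = 0.0108). Hsd3b6, the dehydrogenase typical of adult Leydig cells, rose by 0.86 on that scale (adjusted p = 0.0124). Cyp17a1, the enzyme that forms androstenedione and so the substrate of Hsd17b3, rose by 0.47 on the log2 scale (adjusted p = 0.0169). Fdx1, the ferredoxin that feeds electrons to Cyp11a1, rose by 0.32 on the log2 scale (adjusted p = 0.0180), and Hsd3b1, which encodes another isoform of the same dehydrogenase, fell by 0.90 on that scale (adjusted p = 0.000985), all by limma. Cyp11a1 itself, named after its value was seen, had 0.21 (limma adjusted p = 0.260). Of the 9 genes, 0 were called without WT replicate 2 or Ccdc117ko replicate 2 or 3, 1 without Ccdc117ko replicate 1, 2 without WT replicate 3 and 6 without WT replicate 1. With the filter at a mean of 10, each of the 6 fits called 5 or 6 of them.

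Within each library, Hsd17b3 was set against each of the 11 genes of the Leydig list, as Hsd17b3 minus the marker on the log2 scale. The change in this difference from WT to Ccdc117ko was below 0 for 7 markers and above 0 for 4, with a median of -0.42. It ran from -1.44 against Star to 0.36 against Vcam1. Against Cyp17a1 the difference was -3.33, -3.22 and -3.48 in WT and -3.95, -4.16 and -3.96 in Ccdc117ko, so that the libraries of Ccdc117ko were all lower. Against Vcam1 it was -1.30, -1.35 and -1.35 in WT and -0.91, -1.11 and -0.91 in Ccdc117ko, so that they were all higher. Against Prlr, Nr5a1, Fabp3 and Lhcgr the groups overlapped. In total, the Ccdc117ko libraries were all lower against 6 markers, all higher against 1 and overlapping against 4. Each change is the log2 change of Hsd17b3 less that of the marker, so its direction depended on the marker. This comparison was added after the values were seen, and it was tested against Cyp17a1 and Insl3 only. The two-sided exact permutation p was 0.1 for each, the smallest that 3 against 3 allows (0.167 adjusted over the 5 measures within libraries). Against the other markers it was given no test.

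The Leydig marker list moved in both directions beside Hsd17b3. Of its 11 genes (45.5% called, beside 6.80% of all genes tested), 3 rose (Star, Hsd3b6 and Cyp17a1) and 2 fell. These were Vcam1, an adhesion molecule, with a log2 change of -0.57 (adjusted p = 0.0124), and Nr5a1, the transcription factor of steroidogenic cells, with -0.24 (adjusted p = 0.0357), both by limma. The summed level was 70907 to 82120 normalized counts in WT and 83149 to 97039 in Ccdc117ko, and no marker was at 0. Most of that sum was Insl3, named outside the rule for that share, with means of 48328 in WT and 57057 in Ccdc117ko. Insl3 overlapped between genotypes and was not called (limma adjusted p = 0.113). Of the 11 genes, 5 were called without WT replicate 1, 1 without WT replicate 3 and 0 without any other library, or 5 to 10 with the filter at 10. The part of Leydig cell number or content in the Hsd17b3 values was not tested.

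Hsd17b1, Hsd17b2 and Hsd17b14, which also handle sex steroids, were lowly expressed. Hsd17b1, the oestrogen-forming enzyme, had 48.8, 30.5 and 33.4 normalized counts in WT and 22.0, 38.6 and 56.4 in Ccdc117ko. The Ccdc117ko libraries held both the lowest and the highest value, and the log2 fold change was -0.02 with an interval of -0.83 to 0.80 (limma adjusted p = 0.992). Hsd17b2, which inactivates testosterone and oestradiol, had 41.2, 39.5 and 52.1 in WT and 53.0, 31.5 and 42.3 in Ccdc117ko. These values overlapped too, with a log2 fold change of -0.09 and an interval of -0.63 to 0.46 (limma adjusted p = 0.887). Hsd17b14, an oxidative enzyme, had 8, 20 and 15 reads in WT and 7, 3 and 11 in Ccdc117ko. Its groups overlapped despite the largest fold difference in the family, a log2 fold change of -0.96 with an interval of -2.07 to 0.15 (limma adjusted p = 0.283). A change of the size seen in Hsd17b11 would lie inside the intervals of all 3 genes, so it was not detectable for them at this depth.

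Of the 10 tested genes that turn over or receive active sex steroids 1 rose and 1 fell, with a median of -0.05. These calls were 20.0% of the list, beside 6.80% of all genes tested (16.6% with the filter at 10). Srd5a1, which reduces testosterone to dihydrotestosterone, had 177, 194 and 165 normalized counts in WT and 260, 218 and 260 in Ccdc117ko (log2 fold change 0.46, limma adjusted p = 0.0458). Shbg, the sex hormone binding globulin, had 306, 335 and 333 in WT and 233, 232 and 219 in Ccdc117ko (log2 fold change -0.51, limma adjusted p = 0.0172). For both genes the genotypes did not overlap. Of the list, 1 gene was called without WT replicate 1 and 0 without any other library, or 1 to 3 with the filter at 10.

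Hsd17b4 carries a hydratase and a dehydrogenase activity in 1 protein and serves the peroxisomal shortening of very-long-chain and branched fatty acids. The gene is on chromosome 18. Its normalized counts were 1684, 1839 and 1740 in WT and 1551, 1533 and 1657 in Ccdc117ko. Each Ccdc117ko library lay below each WT library, by a small margin. The means were 1755 ± 78.3 and 1580 ± 66.7 (SD, n = 3 each), and the log2 fold change was -0.15 (standard error 0.05, limma adjusted p = 0.136). The authors' deposited table gives an FDR of 0.0729. It was not called with any library left out, with an adjusted p of 0.0561 to 0.262 by limma with the filter at 10.

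In peroxisomal beta-oxidation, 2 of the 16 tested genes (12.5%) fell and none rose, with a median of -0.11. Over all genes tested 6.80% were called, or 16.6% with the filter at 10. Both genes that fell encode transporters that bring fatty acyl-CoA into the peroxisome. Abcd2 had 143, 154 and 161 normalized counts in WT and 101, 104 and 74.6 in Ccdc117ko (log2 fold change -0.72, adjusted p = 0.0336). Abcd3 had 886, 855 and 925 in WT and 735, 745 and 698 in Ccdc117ko (log2 fold change -0.29, adjusted p = 0.0270, both by limma). With any 1 library left out, 0 of the 16 were called, or 1 to 4 with the filter at 10. Among enzymes beside Hsd17b4 in the cycle, named for their role, Ehhadh had a log2 fold change of -0.14 (adjusted p = 0.678) and Acaa1a had 0.02 (adjusted p = 0.911) by limma.

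Hsd17b12 reduces the ketone in each round of very-long-chain fatty acid elongation at the endoplasmic reticulum. Its normalized counts were 709, 720 and 728 in WT and 694, 696 and 650.0 in Ccdc117ko. The genotypes did not overlap, yet the gap was small. The means were 719 ± 9.83 and 680 ± 25.9 (SD, n = 3 each), with a log2 fold change of -0.08 and an interval of -0.21 to 0.04 (limma adjusted p = 0.431). Of the 13 tested elongation genes 1 fell (7.69%), beside 6.80% of all genes called (16.6% with the filter at 10). This was Elovl2, the elongase of very-long-chain polyunsaturated fatty acids. Elovl2 had 8324, 8643 and 9189 normalized counts in WT and 6998, 7076 and 7446 in Ccdc117ko (log2 fold change -0.28, limma adjusted p = 0.0193). Of this list 1 gene was called without WT replicate 1 and 0 without any other library, or 1 to 3 with the filter at 10. The list median was 0.07, and Tecr, the reductase that closes the elongation cycle, named for its role, had 0.11 (limma adjusted p = 0.226).

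**Figure D4:**
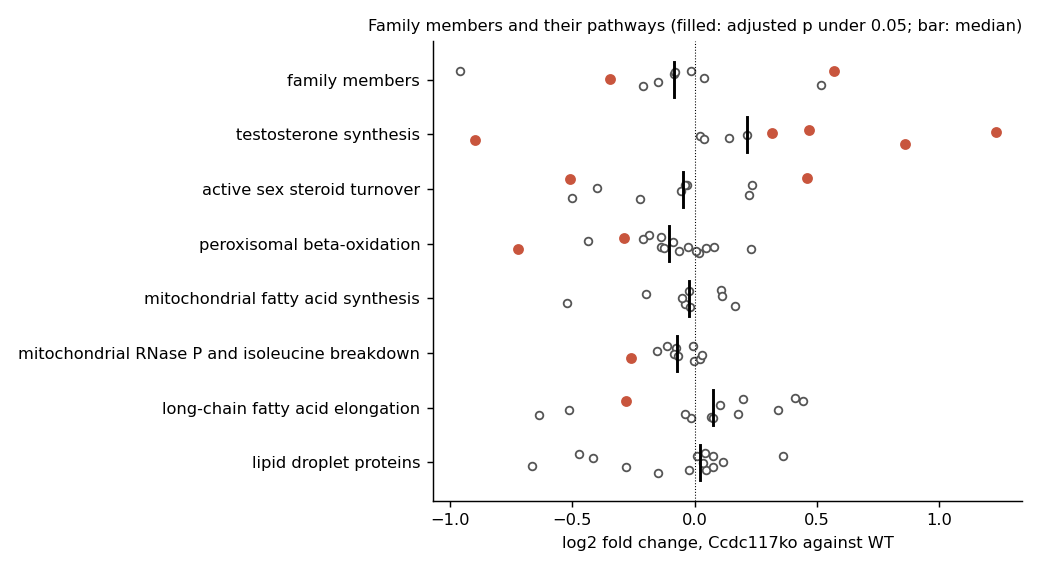
Log2 fold change (x axis, Ccdc117ko against WT) of each tested gene in the family and in 7 lists of the pathways in which its members act. Filled points passed the adjusted threshold and black bars are list medians, which run from -0.11 for peroxisomal beta-oxidation to 0.21 for testosterone synthesis.

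Called genes were found in the marker lists of several cell types at the same time. Over all genes tested 6.80% were called, or 16.6% with the filter at 10. Of the 12 Sertoli cell markers 5 fell, Dhh and Inhbb among them, and none rose. Their summed level was 59514 to 61083 normalized counts in WT and 54103 to 56023 in Ccdc117ko. Most of that sum was Clu, named outside the rule for that share, with means of 43791 in WT and 40246 in Ccdc117ko. Clu was not called (limma adjusted p = 0.0508). Of 10 spermatogonial markers 3 fell (Kit, Dazl and Etv5), and of 10 round spermatid markers 8 rose, with a summed level of 70014 to 76192 in WT and 85585 to 88997 in Ccdc117ko. Of 10 spermatocyte markers 2 fell (Mybl1 and Dmc1), of 8 macrophage markers 1 fell (Mrc1), of 8 peritubular and endothelial markers 1 fell (Myh11), and of 10 elongating spermatid markers 1 rose (Hils1). Of 9 mitochondrially encoded genes, taken as a sign of RNA quality, 1 fell (mt-Nd5). These counts rest on all 6 libraries. Without WT replicate 1, 8 round spermatid, 3 Sertoli, 3 spermatogonial, 2 spermatocyte and 1 elongating spermatid markers were called, and without any other library 0 of each. For the first 3 of these lists, the filter at 10 with a library left out gave calls of 8 to 9, 2 to 6 and 3 to 4. Without a trend in the prior variance, 0 were called in each of those 3 lists. For macrophage, peritubular and endothelial markers and mitochondrially encoded genes, 0 were called with any library left out. The part of these shifts in the values of Hsd17b11, Hsd17b8 and Hsd17b4 was not tested.

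The relatives outside the rule included no call. Hsd17b7, of cholesterol synthesis, had 137, 136 and 128 normalized counts in WT and 170, 165 and 148 in Ccdc117ko, without overlap (log2 fold change 0.26, limma adjusted p = 0.172). Hsd17b6, which acts on androgen metabolites, had 0, 2 and 0 reads in WT and 0, 2 and 2 in Ccdc117ko. Akr1c6, an aldo-keto reductase with 17-beta-hydroxysteroid dehydrogenase activity, had 2 reads in WT replicate 3 and 0 in the other 5 libraries, and was not tested.

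The plot of adjusted p with each library left out sets Hsd17b11, Hsd17b8, Hsd17b3 and Hsd17b4 side by side. With the filter at 0.5 none of the 4 passed once a library was removed. With the filter at 10, Hsd17b8 passed in 5 of 6 fits, Hsd17b11 in 4, Hsd17b3 in 1 and Hsd17b4 in 0.

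**Figure D5:**
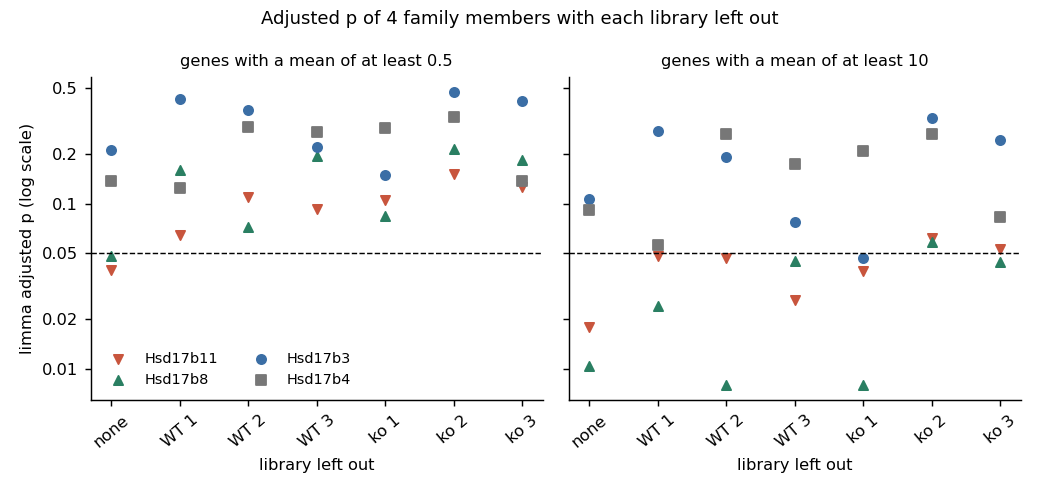
Limma adjusted p (y axis, log scale, dashed line at 0.05) of 4 family members with no library or 1 library left out (x axis), with genes kept from a mean of 0.5 (left) or 10 (right) normalized counts. On the left all points with a library left out lie above the line, from 0.0644 upward.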

How the data were processed

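Per the labels' protocols, testis RNA was sequenced by Illumina after preparation with a kit for stranded mRNA. STAR, DESeq2 and the build mm10 are named, per the submitters' processing notes. What each tool did, how reads were counted and whether strand was used is not given in the sources used here. For 36652 genes, the authors deposited log2 values in 1 table. It was read as log2(normalized count + 1), because the values of each library, with the log2 undone and 1 subtracted, fell on whole multiples of 1 step (for values under 500 reads, 100% within a tolerance of 0.01). The authors' deposited p-value and FDR columns, whose test the file does not state, were used only where credited.

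Limma-trend (limma 3.58.1, R 4.3.3) was fitted to all genes with a mean of at least 0.5, with genotype as the only term, all 6 libraries, two-sided tests and Benjamini-Hochberg adjustment. Fold changes are on the log2(value + 1) scale, so that those of genes with few reads come out too small. No pair of replicates was a duplicate (chi-square per degree of freedom 4.43 to 7.00). Members, naming rule and the 18 gene lists were all chosen with earlier results of these data known, and the lists were given no test. The rule names all members and 3 relatives, and of each other list up to 4 called genes by smallest adjusted p or, with none called, the 2 with the highest mean. Loci and exon lengths came from GENCODE M21 (GRCm38). Alternatives were the filter, the pseudocount, the scaling, the model, a correction for length and GC, the replicate number as a block and each library left out. The limma-trend fit was tested on simulated reads, with the same spread setting for all genes. That check required recovery only of fold changes larger than those of Hsd17b11 and Hsd17b8. The other steps were not tested on simulated data.

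Counting error only is covered by the limit of 3 counts for a library at 0.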

Additional observations from a re-analysis of the deposited data

How the results depend on the processing

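The number of family members called was 2, and it stayed at 2 without a filter, with a filter at a mean of 10, with pseudocounts of 5 and 0.5, with upper-quartile scaling and with limma-voom. For Hsd17b8 the pseudocounts gave an adjusted p of 0.0499 and 0.0497. The count was 0 without a trend in the prior variance (limma adjusted p of 0.162 for Hsd17b11 and 0.190 for Hsd17b8) and 1 with length and GC trends removed (adjusted p of 0.0672 for Hsd17b8). It was 1 with Hsd17b8 summed with Gm20427, or with Gm20427 and Slc39a7, added after seeing the data. Leaving out 1 library gave 0 members in each of 6 fits, 0 to 3 with the added filter at 10, and 0 with the summed models. Of all genes, 2228 were called (1212 higher, 1016 lower), 3798 with the filter at 10, 103 without a trend, and 1746 (1285 higher, 461 lower) with length and GC removed. Leaving out 1 library gave 6 to 1268 genes, or 1714 to 4021 with the filter at 10. The cause of these differences was not tested.

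Replicate numbers are shared between genotypes. Same-numbered libraries did not deviate together (correlations of -0.003, -0.004 and 0.006), so no pairing by number was seen. A pairing that moved few genes would be missed by correlations over many genes, so pairing is not excluded. With replicate number as a block, 703 genes and 0 family members were called (adjusted p of 0.0516 for Hsd17b8 and 0.0772 for Hsd17b11), and 24 genes and 0 members with length and GC removed as well.

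Uncalled log2 fold changes near 0 turned sign in some fits. Hsd17b1 was 0.0031 with upper-quartile scaling and ranged from -0.33 to 0.34 with a library left out (0.18 without WT replicate 1). Hsd17b2 ranged from -0.26 to 0.11 (0.035 without WT replicate 3) and Hsd17b13 from -0.25 to 1.54, below 0 also without Ccdc117ko replicate 1 (-0.12). Hsd17b10 was -0.029 with length and GC removed, with and without the block, and ranged from -0.0039 to 0.11 (-0.0020 without Ccdc117ko replicate 1). Mcat was 0.00039 with upper-quartile scaling and ranged from -0.061 to 0.0089 (0.0040 without WT replicate 3). Lias was 0.015 with length and GC removed, with and without the block, and ranged from -0.10 to 0.025 (0.013 without Ccdc117ko replicate 2, 0.0030 without WT replicate 3). Ccdc117 was 0.021 with length and GC removed, with and without the block, and ranged from -0.070 to 0.014. The values with a library left out were the same under the filter at 10, where kept. Hsd17b8 summed with Gm20427 gave -0.084, and -0.18 to 0.030 with a library left out (WT replicate 2 left out -0.098, Ccdc117ko replicate 1 -0.14, 2 -0.11 and 3 -0.0086), and summed also with Slc39a7 -0.012. Pathway list calls ranged, with all libraries, from 1 to 5 for testosterone synthesis (5 as reported), 0 to 4 for steroid turnover and for peroxisomal beta-oxidation, and 0 to 3 for lipid droplet proteins. Members with few reads (Hsd17b1, Hsd17b2, Hsd17b13, Hsd17b14) are limited by depth.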
